A study of Mus musculus with 14 samples.

Results

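The extracellular matrix and elastic fibre genes are 34 genes, chosen by name, of the 19425 genes listed in the expression tables of this mouse study of how blood stem cells arise in the embryo. The list holds 10 basement membrane genes, 4 elastic fibre genes, 8 fibrillar collagen and proteoglycan genes, 4 adhesive and hyaluronan-binding genes, 5 matricellular genes and 3 remodelling genes. All 34 had a row in each table. At E10, 33 had at least 1 transcript in the sorted single cells, with Lum at 0, and at E11 all 34 had. By a rule on level, a mean of at least 0.5 transcripts per cell over the populations of a stage or of at least 1 in any population, 17 genes are described with their values. Most of the other 17 are given by a range or by values in some populations.

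Basement membranes are sheets of collagen IV, laminins, nidogens and perlecan on which endothelial cells sit. Elastic fibres, built of an elastin core on fibrillin microfibrils with fibulins at their surface, give the wall of a growing artery its recoil. In the embryonic aorta some endothelial cells, the haemogenic endothelium, lose contact with the vessel wall, round up and join clusters of blood cells that project into the lumen, a process named the endothelial-to-haematopoietic transition.

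Single cells were sorted from the aorta-gonad-mesonephros (AGM) region, the tissue around the embryonic aorta, at E10 (28 to 32 somite pairs) and E11 (more than 40). The non-HE, HE and EHT populations came from ICR embryos with the genotype Gfi+/tomato/ Gfi1b+/GFP, which carry fluorescent reporters at 2 blood transcription factor genes. Non-haemogenic endothelium (non-HE) was Cdh5+ Gfi1- Gfi1b- c-kit-, haemogenic endothelium (HE) was Cdh5+ Gfi1+ Gfi1b- c-kit-, and cells in transition (EHT) were Cdh5+ Gfi1+ Gfi1b- c-kit+. Wild-type C57BL/6 embryos gave the intra-aortic haematopoietic cluster (IAHC) cells, sorted as c-kit+CD31+ at both stages and also as c-kit+ at E11. IAHC cells were chosen in silico by their Gpr56 transcripts, with cells above a limit of non-IAHC transcripts removed. All 73, 201 and 89 IAHC cells in the tables had Gpr56, while some held transcripts of mesenchymal genes, among them Col3a1 in 28 of the 89. C57BL/6 embryos also gave the E11 pre-HSCs, precursors of haematopoietic stem cells sorted as c-kit+ Cdh5+ and divided by CD45 into type I (CD45-) and type II (CD45+), and the c-kit+ yolk sac (YS) progenitors. Whole IAHCs (wIAHCs) were clusters picked mechanically, one by one, from C57BL/6 aortas, with the ventral or dorsal wall recorded. For the IAHC sorts the study states that AGMs were pooled before dissociation with collagenase, so such a sort holds cells of several embryos. For the other sorts it does not state whether tissue was pooled. A comparison of EHT cells with IAHC cells is also one of ICR reporter embryos with C57BL/6 embryos, and cell state, strain and genotype cannot be told apart in it. The columns of the E10 non-HE cells carry a name that places them at early E11, whereas their labels place them with E10, so in comparisons that use them stage and population cannot be told apart. The sorted sets of the E11 non-HE cells also differ in named stage. The first is named late E11, as the E11 HE and EHT cells are, and the second carries another stage name.

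The tables held 546 E10 cells at 3000 transcripts each and 575 E11 cells at 5000 each, so the depth is equal within a stage and differs between stages. One count is one unique molecular identifier at the 3′ end of a transcript, and levels of different genes can be compared as they stand. At E10 there were 43 non-HE, 98 HE, 191 EHT, 73 IAHC and 141 YS cells. At E11 there were 30 non-HE, 46 HE, 46 EHT, 62 type I and 55 type II pre-HSC, 201 c-kit+CD31+ IAHC, 89 c-kit+ IAHC and 46 YS cells. The labels give 1 sample per population and no embryo, and the sorted sets, the pre-HSC types and the side of a wIAHC come from column names, so cells are not replicates, each population at a stage counts as 1 sample, and no difference between sorted populations was tested. Intervals are exact 95% intervals that, like the floors used where a count was 0, cover counting error only, and the means of the sorted sets are given beside them. A gene is called 2-fold lower or higher from the log2 ratio of means with 0.1 transcripts added to each, among genes with a mean of at least 0.2 transcripts per cell over the populations of a stage. Other ratios of the 34 genes have no such addition unless it is stated, while the medians over genes have it.

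The sorted cells carried the markers of their labels. The summed level of 8 endothelial markers (Pecam1, Cdh5, Kdr, Tie1, Tek, Emcn, Vwf and Egfl7) was 28.5, 17.7, 7.47 and 5.66 transcripts per cell in E10 non-HE, HE, EHT and IAHC cells and 32.2, 37.9, 14.7 and 10.4 in E11 non-HE, HE, EHT and c-kit+CD31+ IAHC cells. The 7 haematopoietic markers ran the other way, at 0.163, 1.49, 6.68 and 10.1 at E10 and 0.167, 1.61, 9.02 and 13 at E11. Without Gpr56, on which the study chose IAHC cells, the haematopoietic sum was 0.531, 3.64 and 5.92 in E10 HE, EHT and IAHC cells. Macrophage markers were at 0 in non-HE cells of both stages and averaged 0.109 in E11 HE and 1.9 in E11 EHT cells, where 1 cell held 27. Leaving out the cells with at least 4 such markers, 1 in E10 HE and 1 in E11 EHT, left the E11 count of members past 2-fold between EHT and HE at 17.

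The 34 genes took their largest share of the transcriptome in endothelium and a smaller one in each blood population. In E10 non-HE cells they made up 202 of every 10000 transcripts (95% interval 194 to 210), in HE 135 (131 to 139), in EHT 52.9 (51 to 54.8), in IAHC 32.6 and in YS cells 7.45. At E11 the share was 158 (152 to 164) in non-HE, 148 (143 to 153) in HE and 54.4 in EHT cells. It was 33.4 in type I pre-HSCs, with 19.9 to 39.8 over their sorted sets, and 18 in type II, with 11.6 to 24. The E11 IAHC cells stood at 27.3 (c-kit+CD31+) and 23.4 (c-kit+), and E11 YS cells at 5.48. Fn1 was the most abundant member in every population except the YS cells, where Loxl2 led at E10 with 42.5% of member transcripts and Sparc at E11 with 19.0%.

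The classes did not share one pattern. The elastic fibre class took 30.5 per 10000 transcripts in E10 non-HE cells, with 22.6 and 45.3 in the sorted sets, against 3.54 in HE (2.89 to 4.29), 1.27 in EHT and 0.411 in IAHC cells. At E11 it took 24.9 in both non-HE and HE cells and 3.52 in EHT cells. The basement membrane class took 75.5, 58.3, 18.8 and 15.5 in E10 non-HE, HE, EHT and IAHC cells, so its main step lay between HE and EHT. At E11 it took 52.4 in non-HE, 48.6 in HE, 20.1 in EHT, 16.3 in type I and 8.76 in type II pre-HSCs. The adhesive class stood at 35.1, 40.4, 22.1 and 10.4 in E10 non-HE, HE, EHT and IAHC cells. The matricellular class stood at 40.4, 17.2, 3.6 and 1.6 in the same order, and the remodelling class at 11, 11.3, 6.09 and 4.25.

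**Figure D1:**
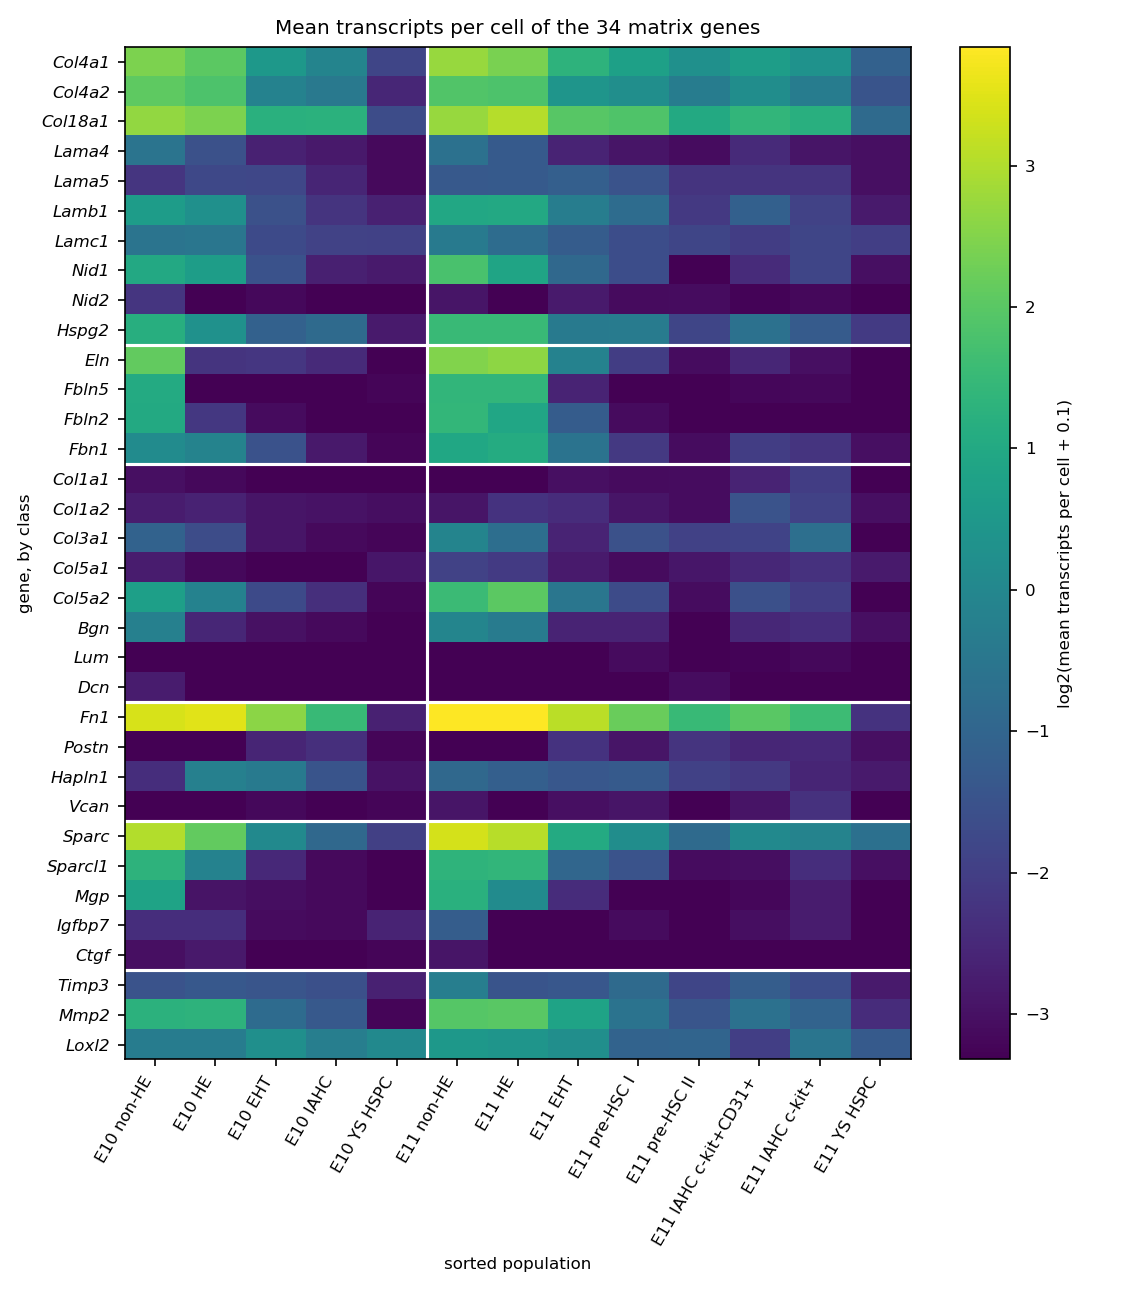
Colour gives log2 of mean transcripts per cell plus 0.1 for the 34 genes (rows, by class) in the 13 sorted populations (columns, E10 then E11). Eln, Fbln5, Fbln2, Mgp and Bgn are bright in non-HE cells of both stages and in E11 HE but dark in E10 HE, while Fn1 and Col18a1 are bright in all AGM populations.

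Elastin (Eln), the core protein of elastic fibres, was at 4.23 transcripts per cell (95% interval 3.64 to 4.89) in E10 non-HE cells and at 0.112 (0.056 to 0.201) in E10 HE cells. The non-HE sets had means of 2.43 and 7.6 and the HE sets 0.0811 and 0.131, so the sets did not overlap. The ratio was -5.24 on the log2 scale (-6.26 to -4.36), and with the added 0.1 it went from -4.35 to -5.18 without the first non-HE set and to -3.57 without the second. Eln was found in 23 of 43 non-HE cells, with up to 26 transcripts in 1 cell, and in 11 of 98 HE cells, with 1 transcript in each. EHT cells had 0.12, IAHC cells 0.0822 and YS cells 0.

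At E11 the HE cells were level with the non-HE cells for elastin. Eln stood at 5.5 (4.69 to 6.41) in non-HE, with set means of 5.63 and 5.27, and at 6.09 (5.39 to 6.84) in HE, a log2 ratio of 0.15 (-0.14 to 0.43). It was found in 21 of 30 non-HE cells and 39 of 46 HE cells. EHT cells had 0.804, in 12 of 46 cells, a log2 ratio to HE of -2.92 (-3.46 to -2.42). Downstream it was 0.145 in type I and 0.0182 in type II pre-HSCs, 0.0697 in c-kit+CD31+ and 0.0225 in c-kit+ IAHC cells, and 0 in YS cells. The 0.145 of type I came from 1 of 3 sorted sets, with set means of 0, 0.265 and 0.

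Fibulin 5 (Fbln5), which binds elastin and helps to assemble it on microfibrils, lies at chr12:101746565-101819119 on the minus strand (RefSeq, GRCm38.p6). It was the clearest on-off gene of the list. It had 1.98 transcripts per cell in E10 non-HE cells (1.58 to 2.44, set means 1.64 and 2.6) and 0 in all 98 HE, 191 EHT and 73 IAHC cells of E10. With a floor of 3 counts over the group, Fbln5 was at least 64.6-fold lower in E10 HE than in non-HE cells. At E11 it was at 2.5 in non-HE (set means 2.84 and 1.9) and 2.54 in HE (2.1 to 3.05), found in 15 of 30 and 27 of 46 cells, and at 0.0652 in EHT cells, where 3 of 46 cells had 1 transcript each. In the YS cells, which serve as a level for stray transcripts, 1 of 141 E10 and 0 of 46 E11 cells had it.

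Biglycan (Bgn), a small proteoglycan of the matrix at chrX:73483601-73495936, is under the rule for named members and was singled out after its values were seen, because its pattern resembled that of Fbln5. It was at 0.767 in E10 non-HE (set means 0.786 and 0.733), 0.0714 in HE (0.135 and 0.0328) and 0.0262 in EHT cells. E11 levels were 0.867 in non-HE, 0.696 in HE and 0.0652 in EHT cells. The E10 log2 ratio of HE to non-HE was -3.43 (-4.85 to -2.22), although at E10 Bgn fell under the minimum mean and was not among the genes counted.

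The 250 bases before the start of these genes are shown because Fbln5 and Bgn were both at or near 0 in E10 HE and present in E11 HE. Of the members with a promoter window in the RefSeq table, 8 had one clear of exons, and the windows of these genes are among them. The 34 genes had 23 windows over 20 members, and Eln and Mgp had none. Fbln5 has a second window, chr12:101818485-101818734, which overlaps an exon and holds none of the motifs searched, so what follows describes only the window clear of exons. Capitals mark GGGCGG, the core of GC boxes, and AATCAC, which holds the AATC core bound by Gfi1 proteins, both searched on either strand, so they also appear as CCGCCC and GTGATT.
Fbln5, chr12:101819120-101819369, minus strand: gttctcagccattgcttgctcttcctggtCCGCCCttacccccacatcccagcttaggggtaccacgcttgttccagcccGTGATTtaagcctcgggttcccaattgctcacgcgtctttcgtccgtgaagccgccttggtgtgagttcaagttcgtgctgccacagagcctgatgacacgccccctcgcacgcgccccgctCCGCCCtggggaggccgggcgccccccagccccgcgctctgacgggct
Bgn, chrX:73483351-73483600, plus strand: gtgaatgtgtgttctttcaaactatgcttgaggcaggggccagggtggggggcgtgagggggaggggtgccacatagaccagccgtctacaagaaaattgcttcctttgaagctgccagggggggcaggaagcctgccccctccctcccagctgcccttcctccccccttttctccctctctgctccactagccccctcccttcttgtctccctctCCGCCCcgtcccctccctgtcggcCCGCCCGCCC
GGGCGG matched 2 times in the Fbln5 window and 3 times in that of Bgn. It was present in 15 of the 23 member windows (65.2%) and in 33.0% of all 32536 windows of this length. AATCAC matched once in Fbln5, in 2 member windows and in 9.16% of all windows. TGTGGT, the core bound by Runx factors, was in 2 member windows and in 14% of all, TATAAA in 2 (8.7%) and 12.3%, and TGANTCA, the AP-1 motif, in none and 6.73%. A match describes these letters in this window and is no evidence of binding.

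**Figure D2:**
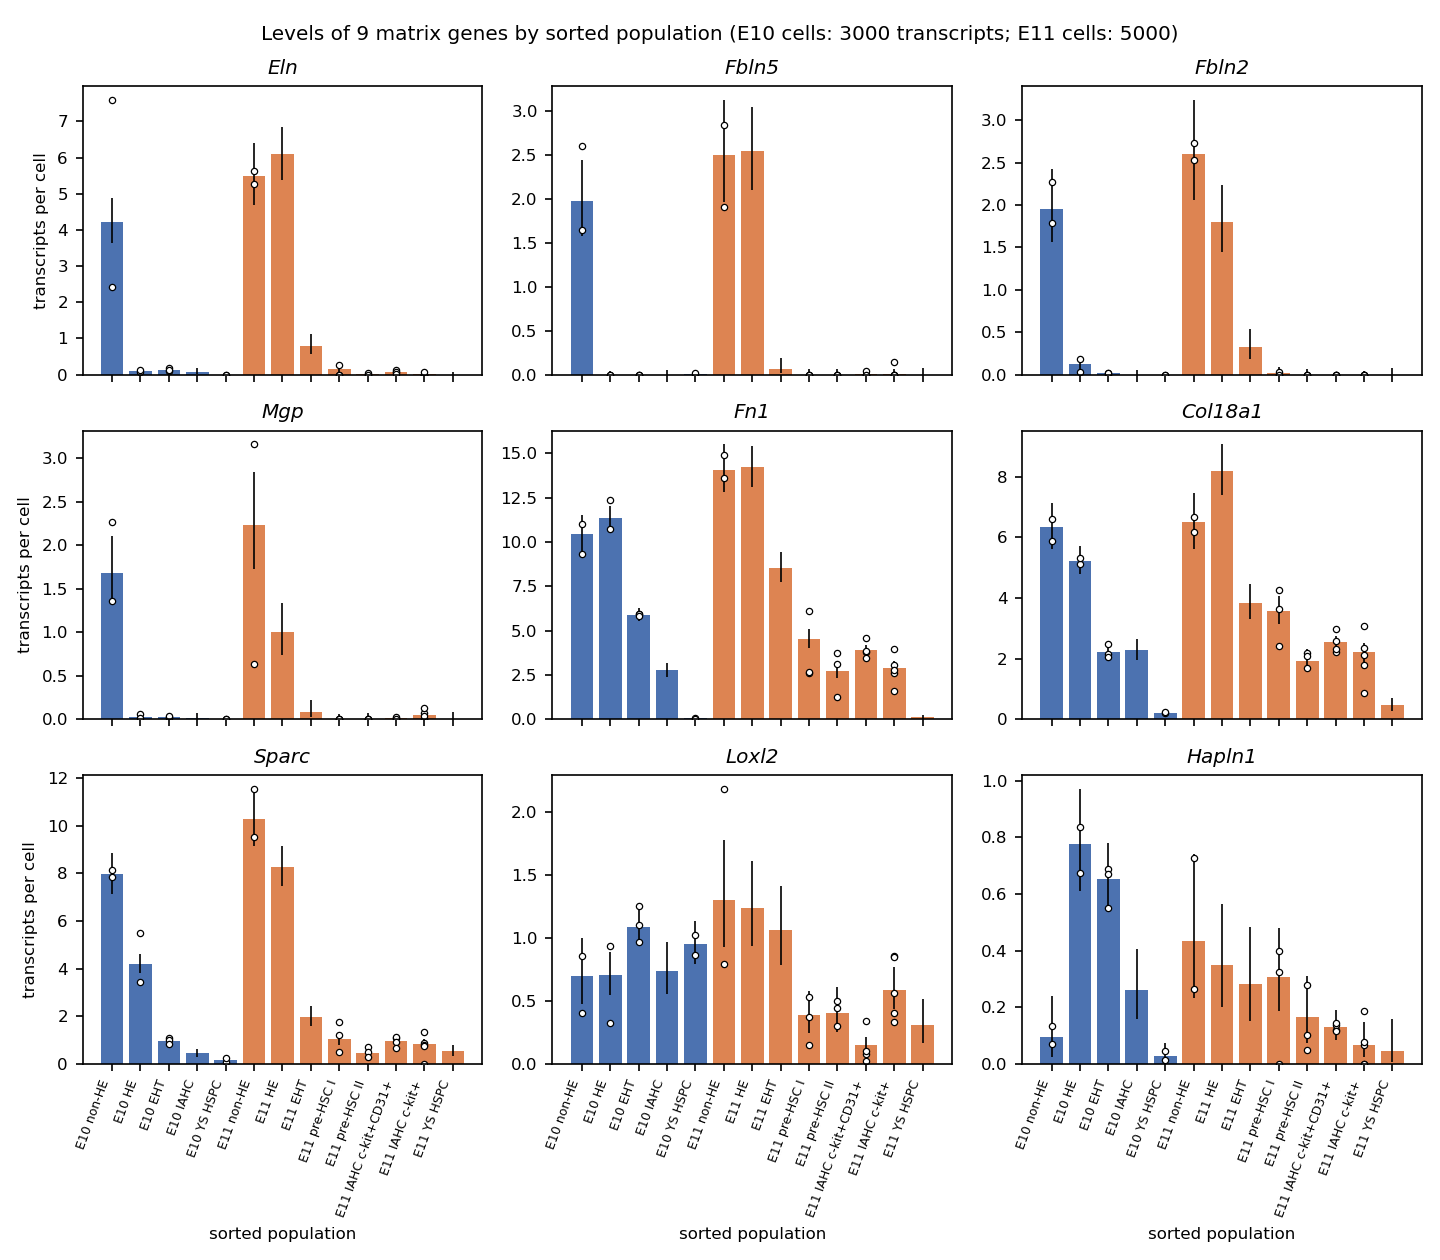
Bars give mean transcripts per cell for 9 genes in the sorted populations (E10 blue, E11 orange), lines the 95% Poisson interval and open points the means of sorted sets. Eln, Fbln5, Fbln2 and Mgp are near 0 in E10 HE and well above 0 in E11 HE, whereas Fn1, Col18a1 and Sparc step down from HE to EHT at both stages.

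Fibulin 2 (Fbln2), another elastin- and fibrillin-binding protein, followed Eln. It was at 1.95 in E10 non-HE (set means 1.79 and 2.27), 0.122 in HE (0.027 and 0.18), 0.0157 in EHT and 0 in IAHC cells. The E10 log2 ratio of HE to non-HE was -4.0 (-5.0 to -3.12). The E11 levels were 2.6 in non-HE (2.53 and 2.73), 1.8 in HE and 0.326 in EHT cells, and 0 of 201 c-kit+CD31+ and 0 of 89 c-kit+ IAHC cells had it. Against EHT cells Fbln2 was therefore at least 21.8-fold lower in c-kit+CD31+ and at least 9.67-fold lower in c-kit+ IAHC cells.

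Fibrillin 1 (Fbn1), the backbone of microfibrils, did not show the E10 gap between non-HE and HE. It was at 1.0 in non-HE, 0.827 in HE, 0.246 in EHT and 0.0411 in IAHC cells of E10, with a log2 ratio of HE to non-HE of -0.27 (-0.83 to 0.29) and of IAHC to EHT of -2.58 (-4.91 to -0.95). E11 levels were 1.83, 2.02 and 0.565 in non-HE, HE and EHT cells. The E10 HE cells thus had the fibrillin transcript at near the non-HE level while 3 elastic fibre genes were past 2-fold lower.

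Matrix Gla protein (Mgp), an inhibitor of calcification and a binder of bone morphogenetic proteins, was at 1.67 in E10 non-HE (set means 1.36 and 2.27) and 0.0306 in HE (0.0541 and 0.0164). The log2 ratio was -5.77 (-8.08 to -4.17). E11 cells had 2.23 in non-HE, 1.0 in HE and 0.087 in EHT cells. The E11 non-HE sets had means of 3.16 and 0.636 on either side of the HE level. The log2 ratio of HE to non-HE with 0.1 added, -1.08, became 0.58 without the first set and -1.57 without the second. By column name the first set and the HE cells are of late E11 and the second set is not, so set and named stage cannot be told apart.

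Across the list, 20 members could be counted for E10 HE against non-HE. Of these, 5 were past 2-fold lower, Fbln5, Eln, Mgp, Fbln2 and Sparcl1, where 1.96% of all genes tested were. Fbln5, Eln, Mgp and Fbln2 passed the minimum mean only through their non-HE level. The count therefore includes genes picked up by being high in non-HE, and it is no separate test of the gap. Hapln1 alone was past 2-fold higher, where 3.06% of genes were. The median log2 ratio of the members was -0.35, against 0.11 for all genes tested. A minimum mean of 0.5 left 2 of these 6 members. In the same comparison the 7 endothelial markers tested had a median of -0.55, with 1, Vwf, past 2-fold lower. The 2 erythroid markers tested, Hbb-bh1 and Hbb-y, were past 2-fold higher. The part of these markers was not tested. The Sparcl1 call rested on 1 set, since its ratio with 0.1 added went from -1.45 to -0.52 without the first non-HE set. At E11, 2 of 22 members were past 2-fold lower in HE than in non-HE, Mgp and Timp3, beside 2.78% of all genes, and 0 were higher, beside 4.14%, and a pseudocount of 0.5 left 0 of the 2. The E11 median was -0.06, against 0.02 for all genes.

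Between the stages, at the minimum mean of 0.2, HE held the most members past 2-fold of the 4 populations compared. With the E11 cells thinned to 3000 transcripts, an added comparison chosen after the data were seen, Eln was at 3.5 in E11 HE against 0.112 in E10 HE, a log2 ratio of 4.96 (4.08 to 5.99). Fbln5 was at 1.72 against 0, at least 56.1-fold higher. The ratios were 3.06 for Fbln2 (2.12 to 4.11), 4.36 for Mgp (2.67 to 6.72), 2.61 for Bgn (1.3 to 4.09), 1.61 for Col5a2 (1.18 to 2.05) and 0.34 for Fbn1 (-0.21 to 0.87). Of 19 members tested, 5 were past 2-fold higher in E11 HE, beside 3.9% of all genes, and Hapln1 was lower, beside 6.58%. With a minimum mean of 0.5 the 6 became 2, so HE is ranked first for the minimum of 0.2 only. The median was 0.08 for members and -0.24 for all genes.

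In non-HE cells the ratios of these genes were short of 2-fold and all on the lower side at E11. The columns of the E10 non-HE cells are named early E11, so by name these ratios are of E11 to early E11 cells. They do not show whether non-HE cells kept their level from E10 to E11. The thinned ratio of E11 to E10 was -0.27 for Eln (-0.63 to 0.08), -0.28 for Fbln5 (-0.81 to 0.25), -0.48 for Fbln2 (-1.05 to 0.07), -0.65 for Mgp (-1.3 to -0.03) and -0.94 for Bgn (-2.03 to 0.05). Of 19 members 1 was past 2-fold lower, Col4a2 at -1.07 (-1.52 to -0.63), beside 4.81% of genes, and 0 were higher, beside 4.34%, with a median of -0.29 against -0.12 for all genes. Leaving out 1 sorted set gave counts of 0 to 5 members past 2-fold, and a pseudocount of 0.5 gave 0. In EHT cells, 3 members were past 2-fold higher at E11, beside 3.52% of genes, and Hapln1 was lower, beside 4.34%. Eln had a ratio of 1.99 there (1.08 to 2.9), Sparcl1 of 2.05 and Mmp2, a gelatinase, of 1.18 (0.64 to 1.7), and the median was 0.25 against -0.29 for all genes, and a pseudocount of 0.5 left 0 of these 4 calls. E11 HE is a single sorted set, and comparisons between the stages carry whatever differed between the sorts.

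Non-HE cells with elastin had higher means of the fibulins than those without. In E10 non-HE, the 23 cells with Eln had means of 3.0 for Fbln5, 3.09 for Fbln2, 2.7 for Mgp and 1.09 for Bgn, and the 20 cells without had 0.8, 0.65, 0.5 and 0.4. Fn1 was also higher beside Eln, at 13.6 against 6.8, whereas Col4a1 stood at 4.13 with and 6.65 without and Col18a1 at 5.17 with and 7.7 without. In E11 non-HE the 21 cells with Eln had Fbln5 at 3.57 and Mgp at 3.19, and the 9 without had both at 0. Col18a1 was again the lower with Eln there, at 5.43 against 9.0.

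In E11 HE, where 39 of 46 cells had Eln, the cells with and without it had Fn1 at 14.4 and 13.1 and Fbn1 at 2.03 and 2.0. Over cells, Spearman's rho of Eln with Fbln5 was 0.58 in E10 non-HE (n = 43), 0.8 in E11 non-HE (n = 30), 0.58 in E11 HE (n = 46) and 0.28 in E11 EHT cells (n = 46). Eln with Fbn1 gave 0.32, 0.45, -0.15 and 0.24 in the same order, and Eln with Col18a1 -0.36, -0.24, -0.03 and 0.38. The cells of a population share their sorts and a fixed depth, so these values describe the sorted cells and are given with no p.

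The 5 genes Eln, Fbln5, Fbln2, Mgp and Bgn, a set chosen after their values were seen, were then counted together at 3000 transcripts per cell. Their means in E10 HE were already at or near 0, so a low count there follows from the choice and is no further test. At least 3 of them were found in 20 of 43 E10 non-HE cells (46.5%, Clopper-Pearson interval 31.2 to 62.3) and in 0 of 98 E10 HE cells, with an upper bound of 3.69%. In 71 of those 98 HE cells none of the 5 was found, and 27 had 1 or 2. At E11 the share was 13 of 30 non-HE cells (43.3%, 25.5 to 62.6) and 21 of 46 HE cells (45.7%, 30.9 to 61.0), and 1 of 46 EHT cells (2.17%). Without thinning the E11 shares were 53.3% and 54.3%. No pre-HSC, IAHC or YS cell had 3 or more.

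**Figure D3:**
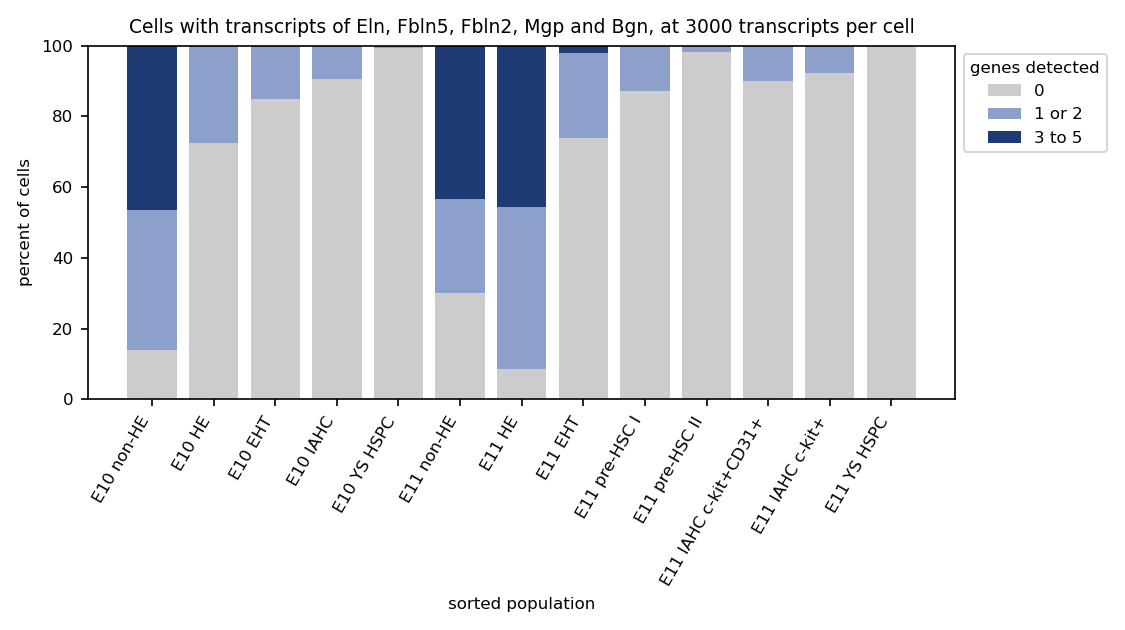
Stacked bars give the percent of cells of each population with 0, with 1 or 2, and with 3 to 5 of Eln, Fbln5, Fbln2, Mgp and Bgn at 3000 transcripts per cell. The top class holds 46.5% of E10 non-HE, 43.3% of E11 non-HE and 45.7% of E11 HE cells, and 0 of 98 E10 HE cells.

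Of the markers of neighbouring wall cells, those of mesenchyme stood lower in E10 HE than in non-HE and those of smooth muscle higher. The summed level of 9 mesenchymal markers was 1.02 in E10 non-HE, 0.541 in HE and 0.089 in EHT cells, and 1.8, 1.43 and 0.391 in the E11 ones. Of the 9, 7 were detected in E10 non-HE and 8 in E11 HE cells, with Pdgfrb at 0 in E10 non-HE and in HE of both stages. The 6 smooth muscle markers summed to 0.605 and 1.23 in E10 non-HE and HE and to 0.367 and 1.04 in E11 non-HE and HE, with Myh11, the most specific, at 0 except in E10 HE at 0.0204. The part of such cells in the elastic fibre levels was not tested.

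Basement membrane transcripts were present in endothelium of both kinds and stepped down at EHT. Collagen IV chains Col4a1 and Col4a2, which form the network of the sheet, are transcribed in opposite directions from starts 21 bases apart on chromosome 8 (11312826, minus strand, and 11312805, plus strand, GRCm38.p6). Col4a1 was at 5.3 in E10 non-HE (set means 5.96 and 4.07), 4.02 in HE (3.62 and 4.26), 1.32 in EHT (0.95, 1.34 and 1.5), 0.836 in IAHC and 0.184 in YS cells. Its log2 ratio of EHT to HE was -1.61 (-1.84 to -1.38). Col4a2 moved alongside, at 4.12, 3.45, 0.796, 0.644 and 0.0709, with a ratio of -2.12 (-2.4 to -1.84). At E11 Col4a1 was at 6.6, 5.15 and 2.37 and Col4a2 at 3.6, 3.46 and 1.2 in non-HE, HE and EHT cells, ratios of EHT to HE of -1.12 and -1.48.

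Nidogen 1 (Nid1), which links laminin to collagen IV, had the largest of these steps at E10, from 1.49 in HE to 0.251 in EHT, a ratio of -2.57 (-3.07 to -2.09). It went on to 0.0548 in IAHC cells. Its E11 means were 3.33, 1.72 and 0.435 in non-HE, HE and EHT, 0.226 in type I and 0 in type II pre-HSCs. The laminin chain Lamb1 was at 1.1 in E10 HE and 0.241 in EHT (-2.19), and at 1.9 and 0.717 at E11 (-1.42). Lamc1, its partner chain, was at 0.602 and 0.204 at E10, a ratio of -1.56, and at 0.478 and 0.326 at E11, short of 2-fold (-0.55, -1.6 to 0.46). Perlecan (Hspg2), the large heparan sulphate proteoglycan of the sheet, was at 2.14, 1.14 and 0.366 in E10 non-HE, HE and EHT cells (-1.64 for EHT to HE) and at 2.8, 2.8 and 0.674 at E11 (-2.05).

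Collagen XVIII (Col18a1), whose end fragment is endostatin, was the basement membrane gene kept at the highest level in blood cells. In E10 cells it was at 6.35 in non-HE, 5.23 in HE, 2.21 in EHT and 2.29 in IAHC, so the ratio of EHT to HE was -1.24 (-1.43 to -1.05) and that of IAHC to EHT 0.05 (-0.22 to 0.31). E11 cells had 6.5, 8.2 and 3.85 in non-HE, HE and EHT, then 3.58 in type I and 1.93 in type II pre-HSCs, 2.53 and 2.2 in c-kit+CD31+ and c-kit+ IAHC cells. It was found in 93.5% of type I pre-HSCs and 85.1% of c-kit+CD31+ IAHC cells, against 14.2% of E10 and 28.3% of E11 YS cells. Of the rest of the class, Lama4 followed the endothelium, at 0.581 in E10 non-HE and 0.0576 in EHT, while Lama5 was at 0.116 to 0.194 in E10 non-HE, HE and EHT cells and Nid2 at 0.116 or less everywhere.

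Fibronectin (Fn1), an adhesive glycoprotein bound by integrins, was the most abundant member in the AGM and stayed short of 2-fold lower in EHT than in HE. It was at 10.4 in E10 non-HE (set means 11 and 9.33), 11.4 in HE (12.4 and 10.7) and 5.9 in EHT (5.95, 5.95 and 5.8). The log2 ratio was 0.12 (-0.04 to 0.28) for HE to non-HE and -0.94 (-1.07 to -0.82) for EHT to HE. IAHC cells had 2.75, a ratio to EHT of -1.1 (-1.32 to -0.88), and YS cells 0.0567. At E11 it was at 14.1, 14.2 and 8.54 in non-HE, HE and EHT, with an EHT to HE ratio of -0.73 (-0.92 to -0.55). It was at 4.53 in type I pre-HSCs, with set means of 2.62, 6.09 and 2.7, and 2.73 in type II, with 3.1, 3.76 and 1.25. In c-kit+CD31+ IAHC cells it was at 3.92, found in 86.1% of cells, against 8.7% of E11 YS cells.

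Hapln1, which links hyaluronan to proteoglycans, was singled out after its values were seen because it was the member that was higher in HE. It was at 0.093 in E10 non-HE (set means 0.0714 and 0.133, 4 transcripts in all), 0.776 in HE (0.676 and 0.836), 0.654 in EHT (0.55, 0.69 and 0.672), 0.26 in IAHC and 0.0284 in YS cells. The HE and EHT sets all lay above the non-HE sets, and the ratio of HE to non-HE was 3.06 (1.64 to 4.97). EHT to HE was -0.24 (-0.67 to 0.19), and IAHC to EHT was -1.33 (-2.11 to -0.63). At E11 the populations were closer, at 0.433 in non-HE, 0.348 in HE, 0.283 in EHT and 0.306 in type I pre-HSCs. With E11 thinned, Hapln1 was lower at E11 in HE, at 0.239 against 0.776 (-1.7, -2.76 to -0.78), in EHT (-2.33, -3.8 to -1.16) and in c-kit+CD31+ IAHC cells (-1.39, -2.37 to -0.4). In non-HE cells the ratio was 1.33 (-0.65 to 3.55). Postn was at 0.109 or less and Vcan at 0.101 or less in each sorted population.

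The matricellular proteins, which sit in the matrix and modulate cells, mostly marked endothelium. Sparc, a collagen-binding glycoprotein, was the second most abundant member in E10 non-HE cells, at 7.95 (set means 7.86 and 8.13), and stood at 4.2 in HE (5.49 and 3.43), 0.963 in EHT (1.07, 1.01 and 0.828), 0.438 in IAHC and 0.156 in YS cells. Its ratio was -0.92 (-1.13 to -0.71) for HE to non-HE and -2.13 (-2.38 to -1.87) for EHT to HE. At E11 it was at 10.3, 8.28 and 1.98, an EHT to HE ratio of -2.07 (-2.41 to -1.73). Its relative Sparcl1 was at 2.37 in E10 non-HE (3.0 and 1.2), 0.806 in HE (0.865 and 0.77) and 0.0785 in EHT cells, and at 2.43, 2.5 and 0.413 at E11. Igfbp7 was at 0.093, 0.0918 and 0.0157 in E10 non-HE, HE and EHT cells, and Ctgf was under 0.1 in each population, with a highest mean of 0.0408.

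Fibrillar collagens were low in most sorted cells. Col5a2, a chain of the minor collagen V that starts fibrils, was at 1.53 in E10 non-HE (1.43 and 1.73), 0.796 in HE (0.811 and 0.787), 0.204 in EHT and 0.0959 in IAHC cells. At E11 it was at 2.83, 3.98 and 0.609 in non-HE, HE and EHT, a ratio of EHT to HE of -2.71. Col1a1 was at 0 in E11 non-HE and HE, with a highest mean of 0.146 in E11 c-kit+ IAHC cells, and Col1a2 reached 0.254 in E11 c-kit+CD31+ IAHC cells, or 0.134 without the second of their 4 sets, which had 0.542. Lum and Dcn, proteoglycans of fibroblasts, stayed at 0.0161 and 0.0465 or less.

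Col3a1, the fibrillar collagen of soft tissue and vessel walls, was singled out after its values were seen as the member counted as past 2-fold higher in a blood population than in EHT cells. It was at 0.372, 0.214 and 0.0314 in E10 non-HE, HE and EHT, and at 0.833, 0.5 and 0.0652 in E11 ones. E11 c-kit+ IAHC cells, sorted without CD31, had 0.517, a ratio to EHT of 2.99 (1.4 to 5.32), while c-kit+CD31+ IAHC cells had 0.169. The EHT level in this ratio came from 3 transcripts in 1 of 46 cells. The study lists Col3a1 with mesenchymal genes and removed IAHC cells above a limit of non-IAHC transcripts. It describes no such filter for EHT cells. Col3a1 was found in 28 of 89 c-kit+ IAHC cells, with more than 2 transcripts in 5 of them and up to 7 in 1 cell. The mesenchymal markers moved with it, at 1.19 in c-kit+, 0.731 in c-kit+CD31+ and 0.391 in EHT cells, and their part in the Col3a1 level was not tested. Col1a1 and Col1a2, under the minimum mean, were at 0.0217 and 0.087 in E11 EHT cells.

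Of the remodelling genes, Mmp2 followed the endothelium at both stages, and Loxl2 did not at E10. Mmp2 was at 2.35, 2.39 and 0.471 in E10 non-HE, HE and EHT cells, a ratio of EHT to HE of -2.34 (-2.71 to -1.98), and at 3.73, 3.93 and 1.7 in E11 ones. Loxl2, an enzyme that cross-links collagen and elastin, was at 0.698 in E10 non-HE (0.857 and 0.4), 0.704 in HE (0.324 and 0.934), 1.09 in EHT (1.1, 0.966 and 1.25), 0.74 in IAHC and 0.95 in YS cells (0.862 and 1.03). The EHT to HE ratio was 0.63 (0.23 to 1.04), short of 2-fold, and the second HE set reached 0.934, near the lowest EHT set. In E10 YS progenitors, where it was the most abundant member, 67 of 141 cells had it. At E11 Loxl2 was instead higher in non-HE, HE and EHT cells than in pre-HSC and IAHC cells. With E11 thinned it was at 0.196 in E11 YS cells.

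At E11 Loxl2 differed in level between the IAHC sorts, with overlap between their sets. It was at 1.3 in non-HE, with 0.789 and 2.18 in its sets, 1.2 in HE, 1.07 in EHT, 0.387 in type I and 0.4 in type II pre-HSCs, 0.149 in c-kit+CD31+ and 0.584 in c-kit+ IAHC cells. The 4 c-kit+CD31+ sets had means of 0.08, 0.339, 0.102 and 0.0233 and the 5 c-kit+ sets means of 0.333, 0.562, 0.4, 0.857 and 0.846, so set 2 of the first lay above set 1 of the second. With E11 thinned, that c-kit+CD31+ set, at 0.203, lay above 2 of the 5 c-kit+ sets, at 0.2 and 0.16. The ratio of c-kit+CD31+ IAHC to EHT cells was -2.84 (-3.54 to -2.15). Against E10 c-kit+CD31+ cells, with E11 thinned, it was -2.89 (-3.71 to -2.13), and Loxl2 was the 1 member of 19 past 2-fold in that comparison. Of all genes, 2.36% were past 2-fold lower there and 3.02% higher, and the medians were 0.0 for members and -0.26 for all genes. Timp3, a matrix-bound inhibitor of metalloproteinases, was at 0.256, 0.296 and 0.267 in E10 non-HE, HE and EHT cells and at 0.733, 0.261 and 0.283 in E11 ones, with a ratio of HE to non-HE at E11 of -1.49 (-2.64 to -0.41).

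Over the list, the step from HE to EHT held the most members past 2-fold. At E10, 12 of 20 members were past 2-fold lower, beside 5.55% of all genes, and 0 were higher, beside 3.26%, with a median of -1.31 against 0.07 for all genes. At E11, 17 of 22 were lower, beside 6.6%, and 0 were higher, beside 6.39%, with a median of -1.72 against 0. Some of the members counted passed the minimum mean only through their non-HE and HE levels. Sparcl1 did so at both stages, and Eln, Fbln5, Fbln2, Mgp and Bgn at E11. The counts therefore include genes picked up by being high in endothelium, and they are no separate test of the step. Endothelial markers were lower in the same step, 5 of 7 tested at E10 with a median of -1.29 and 7 of 8 at E11 with a median of -1.35, and their part was not tested. From EHT to IAHC cells at E10, 4 of 20 were lower, beside 5.53%, and 0 higher, beside 2.04%, with a median of -0.51 against 0.01, and a pseudocount of 0.5 left 0 of the 4. These comparisons share their populations, and the last one changes strain and genotype with the cell state.

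At E11, 9 of 22 members were past 2-fold lower in c-kit+CD31+ IAHC than in EHT cells, beside 8.46% of genes, and 0 higher, beside 4.92%, with a median of -0.82 against 0.03, and a pseudocount of 0.5 left 4. In c-kit+ IAHC cells 10 were lower, beside 9.8%, and Col3a1 was higher, beside 5.16%, with a median of -0.96 against -0.05, and a pseudocount of 0.5 left 3 of these 11. Both use the same EHT cells. Endothelial markers were lower in the same comparisons, with 3 of 8 past 2-fold and a median of -0.61 in c-kit+CD31+ IAHC cells. In c-kit+ ones 5 of 8 were past 2-fold, with a median of -1.22, and the part of these markers was not tested. The log2 ratio of c-kit+CD31+ IAHC to EHT cells was -3.53 for Eln (-4.53 to -2.61), -4.38 for Sparcl1, -2.36 for Nid1, -1.66 for Mmp2 and -1.12 for Fn1.

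Type II pre-HSCs had less of several members than type I, within one strain. Of 22 members, 7 were past 2-fold lower, beside 1.7% of all genes, and 0 higher, beside 0.82%, with a median of -0.78 against -0.01. With a pseudocount of 0.5 the count was 0, and with thinning to 3000 transcripts it was 4. The ratio was -1.93 for Hspg2 and for Lamb1, -1.21 for Sparc, -3.83 for Sparcl1, -0.89 for Col18a1 (-1.24 to -0.55) and -0.73 for Fn1 (-1.03 to -0.44). With E11 thinned, the Sparcl1 ratio rested on 11 transcripts in 3 type I cells and 1 transcript in type II. Comparing the types within each of the 3 sorted sets that share a number, Hspg2, Lamb1, Sparc and Col18a1 were lower in type II in all 3. Fn1 and Sparcl1 were lower in 2. With the ratios averaged within sets, 4 members were past 2-fold, and Eln at -0.46, Col5a2 at -0.59 and Sparc at -0.99 were not. Hspg2 had set means of 1.6, 0.706 and 0.3 in type I and 0.1, 0.24 and 0.15 in type II. The endothelial markers moved with them, at 10.1 in type I and 6.25 in type II, with 0 of 8 past 2-fold. The smooth muscle markers went from 1.2 to 0.291, with both of those tested, Acta2 and Myl9, past 2-fold lower, and the erythroid ones from 3.47 to 2.38, with 1 of 3, Hba-x, past it. The part of these markers was not tested. Without set 2 of type I, Eln and Col5a2, at -1.05 and -1.39 with 0.1 added, both turned to 0.24, and the share of all members in type I went from 33.4 to 25.6 per 10000. Leaving out any 1 set left 5 to 11 members past 2-fold.

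**Figure D4:**
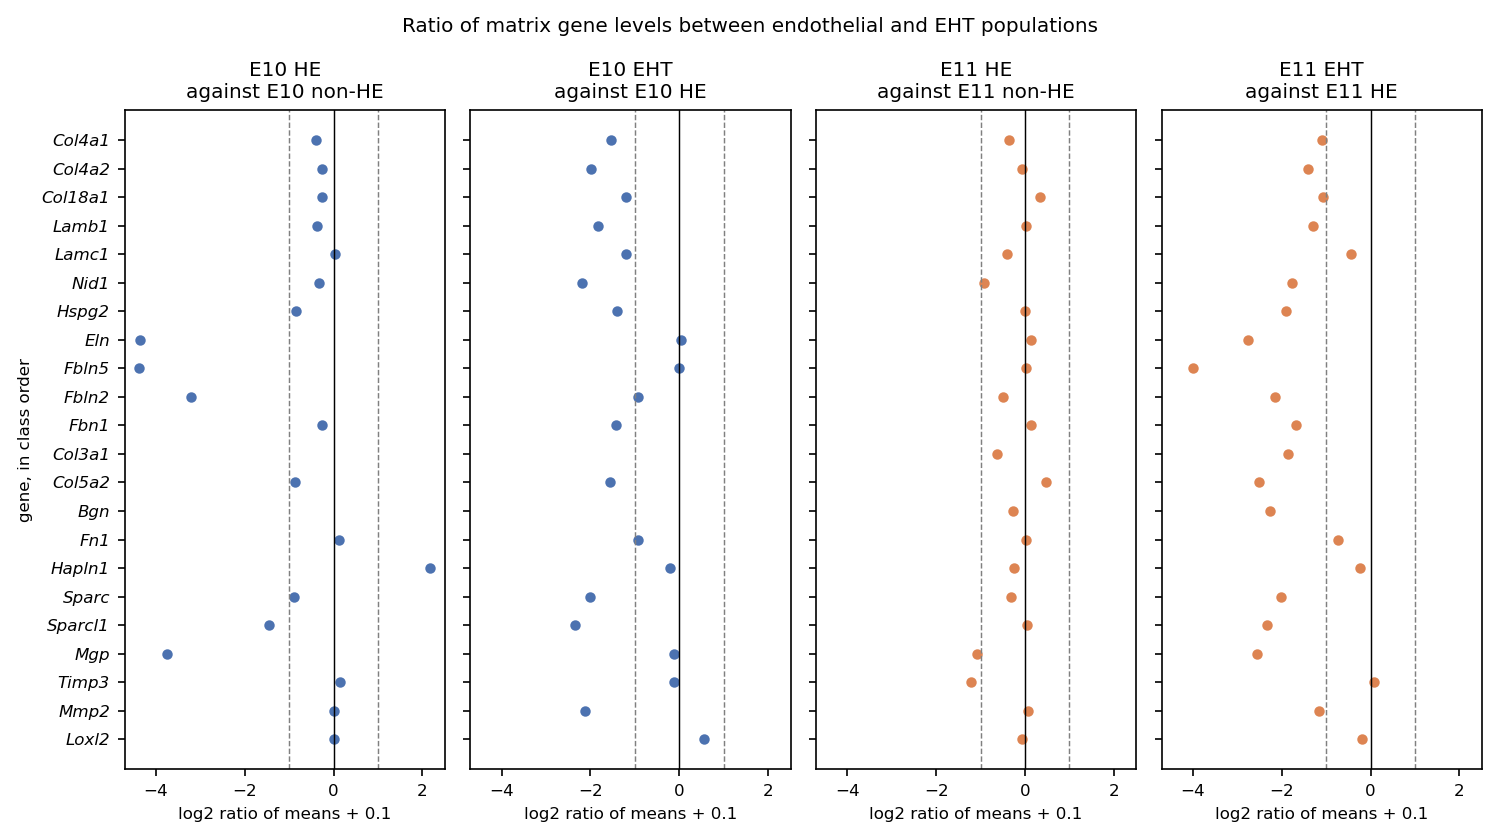
Points give the log2 ratio of mean transcripts per cell plus 0.1 for each member tested, in E10 HE against non-HE, E10 EHT against HE and the same comparisons at E11, with dashed lines at 2-fold. Eln, Fbln5 and Fbln2 lie far below the line for HE against non-HE at E10 (Eln at -4.35) while Fbn1 lies above it, all 4 lie between the lines at E11, and 12 and 17 members lie below the line for EHT against HE at E10 and E11.

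Matrix genes outside the list were taken from fixed lists, and their counts are to be read beside the shares of all genes given above (for EHT against HE 5.55% lower at E10 and 6.6% at E11, for HE against non-HE 1.96% lower at E10 and 4.14% higher at E11). Of 17 further elastic fibre and microfibril genes, 5 could be tested. At E10, 1 of them was past 2-fold lower in HE than in non-HE, Ltbp4, a latent TGF-beta binding protein needed for elastic fibres, at 2.72 in non-HE and 0.582 in HE (-2.05 with 0.1 added). At E11, 1 was past 2-fold higher in HE than in non-HE, Ltbp1, another latent TGF-beta binding protein, at 0.4 in non-HE and 1.17 in HE. In EHT cells 3 were lower than in HE at E10, Fbn2, Ltbp4 and Mfap2, and 4 at E11, Fbn2, Ltbp1, Ltbp4 and Mfap2. Ltbp4 stood at 3.54 in E11 HE and 0.696 in EHT cells, and Mfap2, a microfibril glycoprotein, at 3.54 and 0.913.

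Of 16 other basement membrane genes, 1 could be tested at E10 and 2 at E11. Agrn, agrin, was at 1.7, 0.888 and 0.257 in E10 non-HE, HE and EHT and at 2.2, 2.41 and 0.804 at E11, with a ratio of EHT to HE of -1.47 at each stage with 0.1 added. Lama3 was higher in E11 HE than in non-HE, at 1.3 against 0.533. Of 11 collagen synthesis genes 5 were tested, and 1, Serpinh1, the collagen chaperone, was past 2-fold lower in EHT than in HE at both stages, from 3.0 to 1.38 at E10 and from 3.76 to 1.78 at E11, with list medians of -0.65 and -0.5. Of 8 other proteases and inhibitors, 2 could be tested at E10, Mmp14 and Timp2, both past 2-fold lower in EHT, and 3 at E11, of which Timp2 was lower.

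The wIAHCs are libraries of whole clusters, and each was used as 1 library in a test. Of 109, the 57 with at least 5000 transcripts were used. At E10 21 of them were ventral and 7 dorsal, and at E11 17 were ventral and 12 dorsal. E10 ventral ones held 5980 to 111000 transcripts (median 14500) and E11 dorsal ones 5100 to 26000 (median 8240). The labels do not say which wIAHCs came from one embryo, so p-values measure the spread between wIAHCs only. All E10 wIAHCs carry one column name prefix, which 4 of the 17 E11 ventral and 6 of the 12 E11 dorsal ones share, and the other 19 E11 ones carry another.

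Members together took a median of 20.4 per 10000 transcripts in E10 ventral, 30.3 in E10 dorsal, 21.2 in E11 ventral and 29.2 in E11 dorsal wIAHCs. Fn1 was found in 53 of the 57, Loxl2 in 52 and Col18a1 in 51. Eln and Lum were at 0 in all 57, Fbln2 was in 1, Fbln5 in 2, Mgp in 3 and Fbn1 in 12 (21.1%). Whole clusters thus held fibronectin and collagen XVIII in most libraries, fibrillin 1 in some, and elastin in none.

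Fn1 ranged from 0.969 to 24.7 per 10000 in E10 ventral wIAHCs (median 7.01), from 1.08 to 11.4 in E10 dorsal (6.06), from 0 to 15.1 in E11 ventral (5.19) and from 0 to 31.0 in E11 dorsal ones (9.16). The groups overlapped over most of their range. After the filter of filterByExpr, Fn1 was the only member among 260 genes tested, and edgeR's quasi-likelihood test with Benjamini-Hochberg adjustment gave no call for it. The log2 ratio of E11 to E10 was -0.42 in ventral (SE 0.334, adjusted p = 0.336) and 0.70 in dorsal wIAHCs (SE 0.497, adjusted p = 0.412). Ventral to dorsal gave an adjusted p of 0.819 at E10 and 0.612 at E11, and the interaction of stage and side 0.493. In wIAHCs of the first column name prefix alone, with the lower filter of a mean of 1 transcript, the ventral ratio of Fn1 turned to 0.37 (SE 0.307, edgeR adjusted p = 0.731), where all wIAHCs under that filter gave -0.49 (adjusted p = 0.387).

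Of all genes tested, 31.2% were called between stages in ventral and 9.23% in dorsal wIAHCs. Between ventral and dorsal 0.0% were called at E10 and 0.0% at E11, and 0.0% for the interaction. By edgeR these 3 contrasts had 20, 23 and 26 genes at an unadjusted p under 0.05, none of them a member, and DESeq2 called 0 genes in them as well. That filter tested 1 member. With a mean of at least 1 transcript per wIAHC, a filter chosen after the data were seen, 10 members were tested and 0 called, where 0.0906%, 0.0% and 0.0453% of genes were called, and 1, 2 and 3 of the 10 had an unadjusted p under 0.05. With no filter 32 were tested and 0 called, beside 0.0587%, 0.0881% and 0.154% of genes, with 2, 6 and 5 at such a p. The lowest p between the sides of E11 under the mean filter was that of Col4a1, with a log2 ratio of ventral to dorsal of -1.28 (SE 0.372, edgeR adjusted p = 0.184). The basement membrane members together had medians of 7.91 and 8.98 per 10000 in E10 ventral and dorsal wIAHCs, and at E11 of 4.89 in ventral (0 to 13) and 14.3 in dorsal ones (0 to 30.1), with overlap. With the filter of filterByExpr there were 109 genes at an unadjusted p under 0.05 between stages in ventral and 67 in dorsal wIAHCs, again with 0 members, and DESeq2 called 0 members there.

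Hapln1 differed between stages once lower genes were kept, with a filter chosen after the data were seen. It was in 20 of 21 E10 ventral wIAHCs at 0 to 9.1 per 10000 (median 1.67), in 7 of 7 E10 dorsal ones at 1.5 to 5.54 (2.67), in 7 of 17 E11 ventral ones at 0 to 1.93 (0) and in 5 of 12 E11 dorsal ones at 0 to 1.6 (0). With a mean of at least 1 transcript per wIAHC, 4416 genes and 10 members were tested, and 5.19% of genes were called between stages in ventral and 1.9% in dorsal wIAHCs. Hapln1 was the 1 member called in each. It passed this filter through its E10 level, with 161 transcripts in ventral and 57.1 in dorsal wIAHCs, against 17.1 and 9.05 at E11. These calls are therefore no separate test of its difference between stages. Hapln1 fell by 2.16 on the log2 scale from E10 to E11 in ventral wIAHCs (SE 0.392, edgeR adjusted p = 1.42e-05). In dorsal ones it fell by 2.17 (SE 0.567, edgeR adjusted p = 0.0184). Among wIAHCs of the first column name prefix alone it fell by 2.5 in ventral (SE 0.659, adjusted p = 0.00813) and its log2 ratio was -1.72 in dorsal ones (SE 0.601, edgeR adjusted p = 0.133).

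Loxl2 ranged from 0 to 5.04 per 10000 in E10 ventral (median 1.28), 2.95 to 14.4 in E10 dorsal (4.29), 0 to 10.7 in E11 ventral (2.86) and 0 to 11 in E11 dorsal wIAHCs (3.2). With the lower filter its log2 ratio of E11 to E10 in ventral wIAHCs was 0.92 (edgeR adjusted p = 0.0601), and within the first prefix 1.6 (SE 0.384, adjusted p = 0.00296), where 2.98% of genes were called, a call that the full set did not give. Its ratio of ventral to dorsal at E10 was -1.52 (edgeR adjusted p = 0.053). Col18a1 ranged from 0 to 9.1 in E10 ventral (2.15), 0 to 5.05 in E10 dorsal (4.16), 0 to 5.21 in E11 ventral (1.64) and 0 to 5.86 in E11 dorsal ones (3.01).

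Col1a1, a chain of the main fibrillar collagen, was at 0 in all 28 E10 wIAHCs and was found in 7 of 17 E11 ventral ones, up to 1.2 per 10000, and in 7 of 12 E11 dorsal ones, up to 4.39. With no filter, 13627 genes and 32 members were tested by edgeR, and 2.27% of genes were called between stages in ventral and 0.785% in dorsal wIAHCs. Col1a1 rose in both, with edgeR adjusted p = 0.00202 in ventral and 0.00471 in dorsal ones. Col1a2 was in 1 of 21 E10 ventral wIAHCs at 0.181 and in 6 of 17 E11 ones up to 3.57. It rose in ventral ones (edgeR adjusted p = 0.000894), and Hapln1 fell in both. Col1a1 entered this fit through E11 wIAHCs alone, with 9.03 transcripts in ventral and 14.1 in dorsal ones. Its calls are therefore no separate test of a rise. Neither Col1a1 nor Col1a2 passed the filter of a mean of 1 transcript. Within the first prefix the Col1a1 call held in dorsal wIAHCs (edgeR adjusted p = 0.00147) and the Hapln1 call in ventral ones (adjusted p = 0.0384). There 0.871% of genes were called in ventral and 0.306% in dorsal wIAHCs. All 7 E11 ventral wIAHCs with Col1a1 carry the second prefix, which no E10 wIAHC has, and it was found in 0 of the 4 of the first prefix and 7 of the 13 of the second, so in ventral ones stage and prefix cannot be told apart for it. In dorsal ones it was in 5 of 6 of the first and 2 of 6 of the second. In the first-prefix fit Col1a2 had an edgeR adjusted p of 0.475 in ventral ones and Hapln1 of 0.288 in dorsal ones, and Vcan, versican, was called higher in dorsal ones (adjusted p = 0.0186). Vcan was in 0 of 7 E10 and 3 of 12 E11 dorsal wIAHCs, up to 4.39 per 10000, all 3 of the first prefix, and in 5 of 21 E10 and 2 of 17 E11 ventral ones. The mesenchymal markers were also higher at E11, with medians of 0.543 and 0.174 per 10000 in E10 ventral and dorsal and 1.23 and 3.25 in E11 ventral and dorsal wIAHCs. Smooth muscle markers had medians of 1.71 and 0.743 at E10 and 3.26 and 4.42 at E11, and endothelial ones 9.58, 7.59, 10.9 and 17 in the same order. Erythroid markers had medians of 1.5 and 3.01 at E10 and 30.3 and 19 at E11. The part of such neighbouring cells in these calls was not tested.

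**Figure D5:**
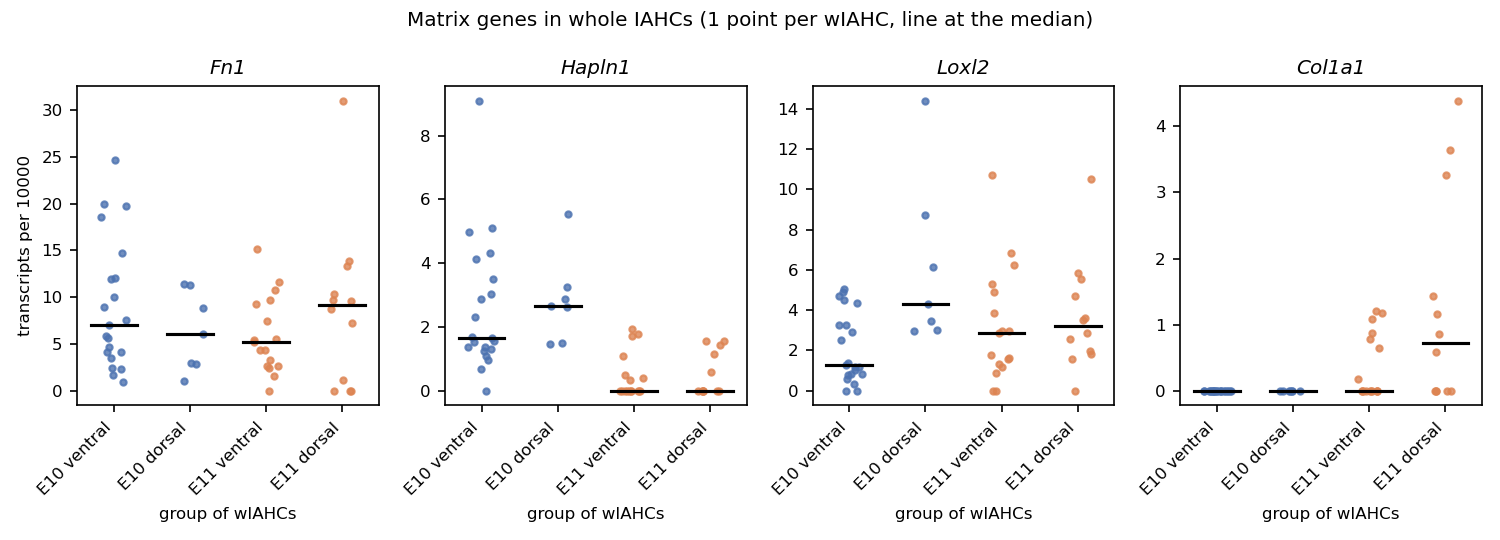
Each point is 1 wIAHC and gives Fn1, Hapln1, Loxl2 or Col1a1 transcripts per 10000 by stage and side, with a line at the median. Hapln1 medians are 1.67 and 2.67 at E10 and 0 at E11, and Col1a1 is at 0 in all 28 E10 wIAHCs.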

How the data were processed

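Single cells and picked wIAHCs were sequenced by CEL-Seq, which counts each transcript once at its 3′ end by a unique molecular identifier. Reads were mapped with BWA 0.6.2-r126 to mm10 per the submitters' processing notes. The authors drew 3000 transcripts per E10 cell and 5000 per E11 cell, and the deposited single-cell values are estimated counts with 0.1 added, which was subtracted here. The wIAHC values deposited by the authors are estimated counts corrected for identifier collisions, not scaled for depth, and were rounded for the count tests. The sequencing reads behind each value are not given in the sources used here, and one transcript is the smallest step of a cell's value.

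Groups came from the labels, and sorted sets, pre-HSC types and wIAHC sides from column names. Sorted populations were compared by ratios of means with exact Poisson, conditional binomial or Clopper-Pearson intervals (95%) and, where a count was 0, a floor of 3 counts, all for counting error only. Because a 3′ count is made once per transcript, no length scaling was used. The wIAHCs were tested with edgeR 4.0.16 (TMM, filterByExpr, glmQLFit and glmQLFTest, adjusted p under 0.05) in R 4.3.3, with DESeq2 1.42.0 as an alternative, and the test was checked on simulated counts. Python 3.11.15, numpy 2.4.6, pandas 2.3.3, scipy 1.17.1 and matplotlib 3.10.9 did the rest. Values are given for members with a mean of at least 0.5 transcripts per cell over a stage or 1 in any population, and in wIAHCs for every member called and the 3 of most transcripts. The members, classes and lists were chosen with earlier results of these data known. Alternatives were another pseudocount, other minimum means, thinning, leaving out macrophage-marker cells or a sorted set, other size factors and other depth limits. The comparison of stages, the wIAHC filter at a mean of 1, the fits within one column name prefix and the ratios within sorted sets of pre-HSCs were chosen after seeing the data. Promoters are from RefSeq, GRCm38.p6.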

Additional observations from a re-analysis of the deposited data

Results flagged for a closer look

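Sorted sets of the named elastic fibre and other members were looked at in populations of 4 or 5 sets, with 3 members in E10 dorsal wIAHCs, 35 groups in all, and 5 held a set far from the others, where the criterion is set to mark about 1 group in 20 by chance for continuous values. In E11 c-kit+CD31+ IAHC cells, Col5a2 was at 0.488 transcripts per cell in set 4 (43 cells) against 0.14 to 0.184 in the others. In the same population Fbln5 was at 0.0408 in set 3 (2 transcripts in 49 cells) and 0 in the others. In E11 c-kit+ IAHC cells, Eln was at 0.0769 in set 5 (2 transcripts in 26 cells) and Fbln5 at 0.143 in set 4 (1 transcript in 7 cells), each at 0 in the other sets. With the other sets at 0, any transcript in 1 set is marked, so these 3 rest on 1 or 2 transcripts. Hspg2 was at 0.625 in set 2 (16 cells) of the same sort against 0.192 to 0.286 in the others.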

How the results depend on the processing

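The counts of members past 2-fold were the most sensitive to how low genes were treated. With a pseudocount of 0.5 the count went from 4 to 0 for E10 IAHC against EHT, from 2 to 0 for E11 HE against non-HE, from 9 to 4 for c-kit+CD31+ and from 11 to 3 for c-kit+ IAHC against EHT, from 7 to 0 for the pre-HSCs, and between stages from 1 to 0 in non-HE and from 4 to 0 in EHT. With a minimum mean of 0.5 it went from 6 to 2 for E10 HE against non-HE, from 4 to 2 for E10 IAHC against EHT, from 2 to 0 for E11 HE against non-HE and from 6 to 2 for HE between stages. Thinning E11 gave 1 for HE against non-HE and 4 for the pre-HSCs, and a share of 157 in non-HE. Without the most abundant member the share per 10000 was 167, 96.8, 33.2, 23.5 and 4.28 in E10 non-HE, HE, EHT, IAHC and YS cells and 130, 119, 37.3, 19, 17.6 and 4.43 in E11 non-HE, HE, EHT, c-kit+CD31+ and c-kit+ IAHC and YS cells. Leaving out sorted sets 1 at a time gave counts of 6 to 8 for E10 HE against non-HE, 12 to 14 for EHT against HE and 4 to 5 for IAHC against EHT. At E11 it gave 2 to 2 for HE against non-HE, 9 to 9 and 10 to 13 for the c-kit+CD31+ and c-kit+ IAHC sorts and 5 to 11 for the pre-HSCs. Between stages it gave 0 to 5 in non-HE, 7 to 10 in HE, 3 to 5 in EHT and 1 to 1 in IAHC cells. Shares then ran from 201 to 203, 128 to 146, 52.1 to 53.5 and 6.51 to 8.25 in E10 non-HE, HE, EHT and YS cells, and from 157 to 158, 25.6 to 39.8, 15.7 to 21.7, 26.9 to 27.7 and 22.1 to 24.5 in E11 non-HE, type I, type II, c-kit+CD31+ and c-kit+ IAHC cells. Mgp in E11 HE against non-HE turned from -1.08 to 0.58 without non-HE set 1 (-1.57 without set 2), and in the pre-HSCs Eln turned from -1.05 to 0.24 and Col5a2 from -1.39 to 0.24 without type I set 2 (lowest -1.41 and -1.79 without set 3). The ratios of named members past 2-fold were each recomputed under several alternatives other than leaving out a set, which gave 281 values. Of these values 243 kept direction and side of 2-fold and 38 were no longer past it. In the wIAHCs, members called between stages in ventral ones went from 0 to 1 with the mean filter of 1, to 2 with it in the first prefix, to 3 with no filter, to 1 with no filter in the first prefix and to 1 (Loxl2) at 10000 transcripts or more. In dorsal ones they went from 0 to 1 with the mean filter, 2 with no filter and 2 with no filter in the first prefix. These filters test more genes, and for the other changes the cause was not tested. The pre-HSCs of either type came in 3 sorted sets of the same numbers. Deviations of same-numbered sets from the type means correlated over 4635 genes at 0.099, 0.182 and 0.174. These are means over 8 to 34 type I and 10 to 25 type II cells, so low correlations cannot decide whether the sets are pairs. The count of 7 members does not use the set numbers. The study divided the types by CD45 index sorting, and in set 1 the cell numbers of type I and type II cells are all different. Same-numbered sets may therefore share a sort, and the ratios within sets that follow cover that case. With the set as a replicate block, chosen after seeing the data, 4 members were past 2-fold in place of 7, and Eln, Col5a2 and Sparc were short of it. In other comparisons no paired analysis was possible because the populations and wIAHCs share no numbers that pair them. Depth limits all members under 0.1 transcripts per cell.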
